A study of Mus musculus with 4 samples.

Results

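The 37 genes described here are 25 immediate early genes and 12 heat shock genes, taken by symbol from 54456 gene symbols in the count matrices. They were chosen by name, with earlier results of these data known. The RNA came from liver non-parenchymal cells of C57BL/6J mice, 30 weeks old, measured by 10x Genomics 3′ single-cell RNA-seq. The libraries compared were S, without a high fat diet in its title, HFD_sed, with a high fat diet (HFD), and HFD_EXE, with a high fat diet and, as the ending is read here, exercise. The labels do not spell out S, sed or EXE, and they do not say how many mice a library holds. A further library, E, was not analysed here beyond its barcodes. All livers were digested with enzymes, red blood cells were lysed and dead cells were removed before capture, so S carries the handling too. There was 1 library per group, so no difference below has a replicate check: it is a difference between libraries, in which diet, exercise, animal and handling cannot be told apart.

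Immediate early genes are transcribed within minutes of a stimulus from factors that are already in the cell, among them SRF at CArG boxes and CREB at cAMP response elements. Their products are mostly transcription factors (the AP-1 proteins Fos and Jun, the zinc finger proteins Egr1 and Klf6, the orphan nuclear receptors Nr4a1 to Nr4a3) and proteins that end the signal (the phosphatase Dusp1, the RNA-binding protein Zfp36). Heat shock genes encode chaperones, which fold proteins, and many are switched on by the factor HSF1 at heat shock elements. Enzymatic dissociation of tissue is known to raise both groups in many cell types, and immediate early genes also answer growth factors, shear and inflammatory signals in liver endothelium and leukocytes.

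RefSeq promoter windows (build GRCm38.p6) were at hand for 30 of the 37 genes, and the 250 bases before the start were searched on both strands. A stretch around the match is shown for 13 members described below. The heat shock element of 2 units, GAANNTTC or TTCNNGAA, was found in 7 of 9 heat shock genes matched and in 3 of 21 immediate early genes, against 14.5% of 27025 genes. Its form of 3 such units in a row, which contains the shorter one, was found in Hspd1 and Hspe1 and in 0.514% of all genes. These genes lie head to head and their windows overlap, so both matches are the same bases, counted once for each gene here and among the 7. The full cAMP response element TGACGTCA was found in Maff, Dusp1 and Btg2 and in 1.77% of all genes, and its core, TGACG or CGTCA, which lies within the full site, in 12 of 21 immediate early genes, 4 of 9 heat shock genes and 19.8% of all genes. A CArG box was found in Egr2, Dusp5 and Zfp36 and in 1.62% of all genes. The AP-1 letters TGANTCA were found in Bag3 alone of the members and in 7.82% of all genes. Each line gives the strand of the gene 5′ to 3′, with the matched letters in capitals, and a match is a description of the letters only.
Hspa1a: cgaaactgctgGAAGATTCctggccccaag
Hspa1b: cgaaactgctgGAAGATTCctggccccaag
Hspe1: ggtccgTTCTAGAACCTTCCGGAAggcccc
Dnaja1: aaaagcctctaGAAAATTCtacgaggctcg
Hsph1: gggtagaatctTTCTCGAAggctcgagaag
Maff: ggctggggcggTGACGTCActgcatgactg
Dusp1: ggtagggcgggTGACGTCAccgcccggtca
Btg2: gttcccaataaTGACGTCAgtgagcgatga
Zfp36: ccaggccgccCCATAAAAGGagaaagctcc
Dusp5: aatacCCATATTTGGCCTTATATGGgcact
Fos: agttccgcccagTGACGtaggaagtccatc
Atf3: ttaatagcattaCGTCAgc
Junb: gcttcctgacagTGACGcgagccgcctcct
The heat shock stretches lie at chr17:34972242-34972271 (minus strand), chr17:34959324-34959353 (minus strand), chr1:55088053-55088082 (plus strand), chr4:40722333-40722362 (plus strand) and chr5:149636351-149636380 (minus strand). Those with the full cAMP response element lie at chr15:79347480-79347509 (plus strand), chr17:26508597-26508626 (minus strand) and chr1:134079303-134079332 (minus strand), and the CArG boxes at chr7:28379267-28379296 (minus strand) and chr19:53529058-53529087 (plus strand). The cores nearest to the start lie at chr12:85473812-85473841 (plus strand), chr1:191183334-191183352 (minus strand) and chr8:84978837-84978866 (minus strand). Hspa1a and Hspa1b are near-identical copies whose upstream windows differed at 3 of 250 bases, so reads can be split between them and each is uncertain alone.

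After filtering, 10212, 10740 and 10172 cells remained in S, HFD_sed and HFD_EXE, with 76875425, 59432022 and 57099173 UMIs (captured transcripts) and medians of 6150, 4179.5 and 4917.5 UMIs per cell. Each 2 libraries had 30 to 43 cell barcodes in common. Cells were clustered without the members, named from marker genes, so that each name stands for cells like that type, and 10 classes with at least 75 cells in each library were compared: liver sinusoidal endothelial cells (LSEC), vascular endothelium, Kupffer cells (the resident macrophages), monocytes and monocyte-derived macrophages, conventional and plasmacytoid dendritic cells (cDC and pDC), neutrophils, T cells, NK cells or ILC1, and B cells. The libraries stood apart within several of these. Of LSEC, 99.0% of S, 92.8% of HFD_sed and 89.7% of HFD_EXE lay in 3 different clusters, and Kupffer cells, monocytes, neutrophils and T cells had different main clusters too, while vascular endothelium, pDC, B cells, cDC and NK cells shared theirs. The summed level of 12 hepatocyte genes, RNA of cells that the preparation should lack, was highest in S in all 10 classes (974 to 2488 CPM) and lowest in HFD_sed in all 10 (305 to 870 CPM). Estimated free RNA was 1.47% to 10.2% of a class in S, 2.83% to 9.76% in HFD_sed and 3.23% to 10.3% in HFD_EXE, and the median mitochondrial share was highest in HFD_EXE in 7 classes. The labels give no time of digestion per library. The part of these in the results was not tested.

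The summed immediate early genes were higher in HFD_sed than in S in all 10 classes, and the size ran from 1.05-fold in Kupffer cells to 2.81-fold in LSEC. The summed heat shock genes were also higher in all 10, over a narrower range of 1.14-fold in T cells to 1.54-fold in neutrophils. In LSEC the 25 immediate early genes took 0.384, 1.08 and 0.731% of the UMIs in S, HFD_sed and HFD_EXE. In neutrophils they took 2.88, 3.54 and 3.70%, the highest share of any class in each of the 3 libraries. In Kupffer cells the shares were 1.14, 1.197 and 1.096%, close to each other beside the other classes. Without the Kupffer-like cluster led by Mmp12 and Cd207, of which HFD_sed held 522 of 684 cells, the Kupffer immediate early sum was 1.04-fold lower in HFD_sed than in S, at 1.099% against 1.14%, and the heat shock sum 1.13-fold higher. The 12 heat shock genes took 0.165, 0.199 and 0.157% in LSEC and 0.312, 0.356 and 0.255% in T cells, and in neutrophils 0.0648, 0.0999 and 0.0732%, the lowest share in each library. The cell class with the largest immediate early share of its UMIs was therefore the one with the smallest heat shock share. HFD_EXE lay below HFD_sed in 9 of 10 classes for the immediate early sum, neutrophils being the exception (1.04-fold higher), and in 10 of 10 for the heat shock sum (1.14 to 1.53-fold lower). Without the neutrophil cluster that Acod1 and Ptgs2 also mark, of which HFD_sed held 302 of 350 cells, neutrophils too were lower in HFD_EXE, 1.15-fold, and HFD_sed was 1.47-fold above S. Set against S, the immediate early sum of HFD_EXE was above in 4 classes, LSEC (1.91-fold), vascular endothelium (1.59-fold), neutrophils (1.28-fold) and cDC (1.05-fold), and below in 6.

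**Figure D1:**
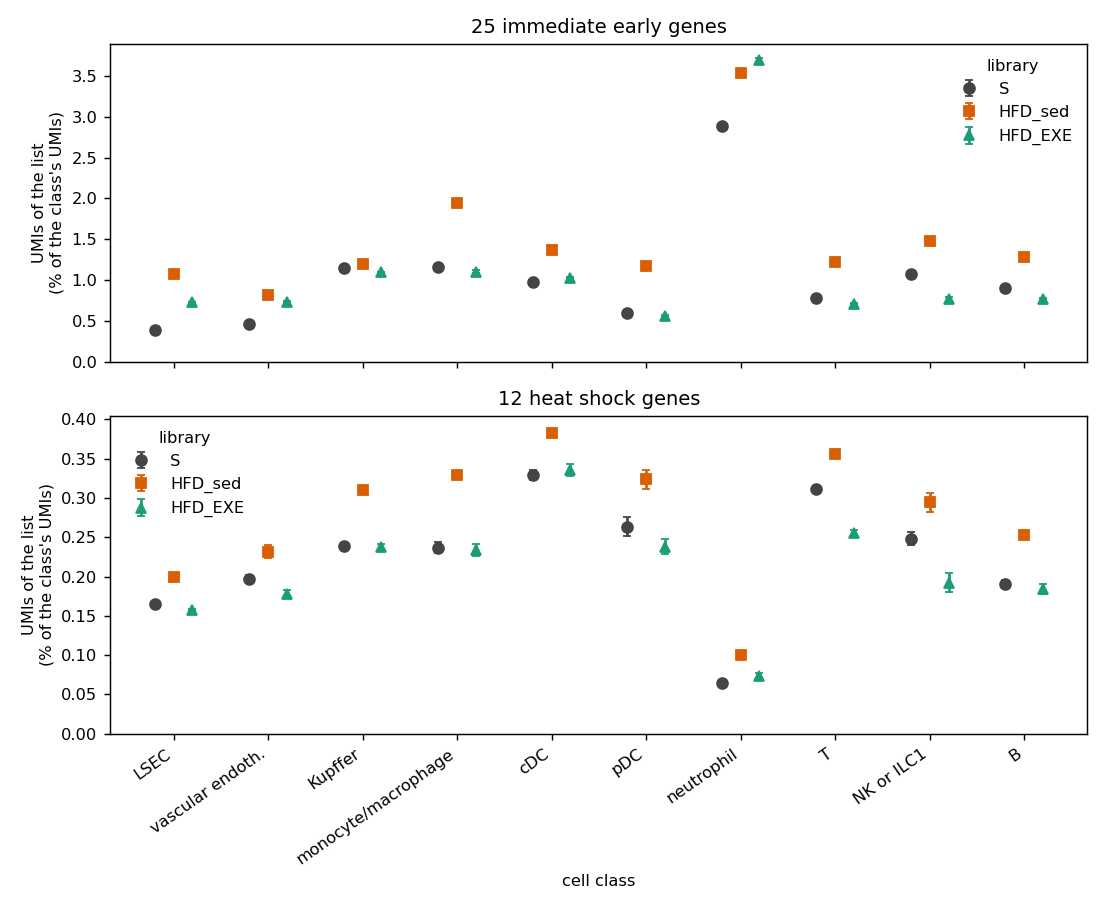
Share of each class's UMIs in the 25 immediate early genes (top) and the 12 heat shock genes (bottom), in percent, for S, HFD_sed and HFD_EXE; bars are exact Poisson 95% intervals, which cover counting error only. HFD_sed is above S in every class in both panels, and neutrophils are highest in the top panel and lowest in the bottom one.

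For single genes, levels are UMIs scaled to the class total (CPM). A gene counted as measured with 20 or more UMIs over both libraries compared, and it was called higher or lower at a ratio of at least 1.5 with an exact 95% binomial interval outside 1. Such a call describes 2 libraries. Over all classes, 122 of 230 measured pairs of an immediate early gene and a class were called higher in HFD_sed than in S and 8 lower, against 9.24% and 10.9% of all gene and class pairs. Of 111 heat shock pairs, 31 were called higher and 1 lower. From HFD_sed to HFD_EXE, 120 of 229 immediate early pairs were called lower and 9 higher, against 7.94% and 9.61%, and 34 of 107 heat shock pairs lower and 2 higher. Between HFD_EXE and S, 49 of 226 immediate early pairs were called higher and 30 lower, against 7.68% and 7.52%, and the heat shock pairs divided into 11 higher and 12 lower of 109. These comparisons share libraries, so a high level in HFD_sed enters the first and the second. Fosl1, a Fos relative, was not measured in any class (66 UMIs in all).

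**Figure D2:**
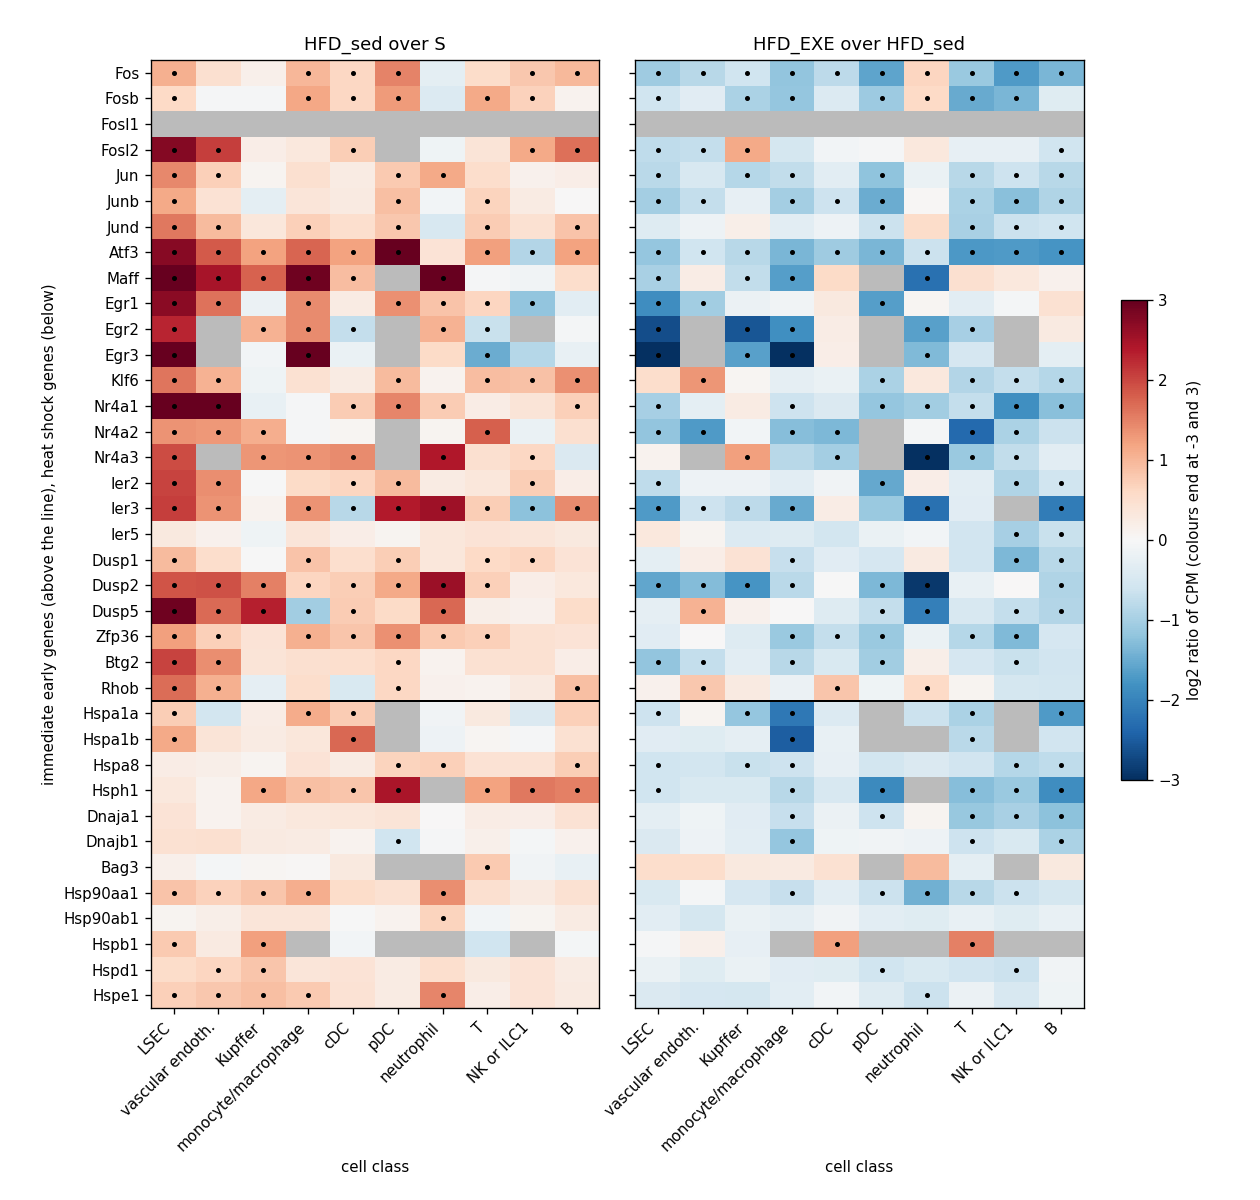
Log2 ratio of CPM for the 37 genes (rows) in the 10 classes (columns), HFD_sed over S on the left and HFD_EXE over HFD_sed on the right; dots mark calls and grey cells were not measured. The LSEC column on the left holds 23 calls among the immediate early genes, while the heat shock rows are pale and mostly of 1 colour in each panel.

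LSEC showed the broadest difference. Of 24 immediate early genes measured there, 23 were called higher in HFD_sed than in S, with a median log2 ratio of 1.92, against 14.4% of all genes. Ier5 was the remaining one, at 116, 143 and 178 CPM in S, HFD_sed and HFD_EXE and a log2 ratio of 0.30. In vascular endothelium 16 of 21 were called higher (median 1.31, background 12.2%). In Kupffer cells 7 of 24 were (0.13, background 10.1%), and monocytes and monocyte-derived macrophages had 13 of 24 (0.68, background 7.81%). The difference between these classes was not tested. Without the Mmp12 and Cd207 cluster, 2 of the 7 Kupffer calls were kept, those of Atf3, Maff, Egr2, Nr4a3 and Dusp2 being lost, and 4 of 5 heat shock calls, that of Hspb1 being lost. In pDC the count was 16 of 18 (0.95, background 5.35%), and in cDC 11 of 24 (0.51, background 4.88%). The cDC class also held a cluster of 84, 65 and 49 cells in S, HFD_sed and HFD_EXE, led by genes of dividing cells such as Top2a and Mki67. In the main cDC cluster alone, 7 of 24 were called higher and 2 lower (0.37). T cells had 11 of 24 (0.54, background 9.03%), NK cells 7 of 23 (0.37, background 5.37%) and B cells 8 of 24 (0.41, background 5.87%). Of 1375 cells in a T cell cluster led by Cd8a, 1309 were of HFD_sed. Within T cell clusters with more even numbers from the libraries, 11 of 24 (0.61), 11 of 23 (0.68) and 3 of 22 (0.42) were called higher. Neutrophils had 10 of 24 (0.38), beside a background of 15.6%, the highest of the 10. The median over all measured genes lay between −0.14 and 0.09 in the same classes. Without the Mmp12 and Cd207 cluster the Kupffer median was 0.05.

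From HFD_sed to HFD_EXE at least 12 immediate early genes were called lower in 6 classes. The counts were 16 of 21 in NK cells (median log2 ratio −0.73, background 5.05%), 14 of 19 in pDC (−1.11, 3.69%), 15 of 24 in monocytes and monocyte-derived macrophages (−0.83, 4.24%), 14 of 24 in B cells (−0.63, 6.17%), 12 of 24 in T cells (−0.64, 9.03%) and 16 of 24 in LSEC (−0.90, 12.4%). Vascular endothelium had 9 of 21 lower and 3 higher (−0.34, 10.9%), and Kupffer cells 9 of 24 lower and 2 higher (−0.28, 8.3%). In cDC 6 of 24 were lower and 1 higher (−0.33, 4.71%). In neutrophils 9 of 24 were lower and 3 higher, with a median near 0 (−0.07, 12.7%). The medians over all measured genes ran from −0.09 to 0.16. Within the neutrophil cluster that holds cells of all libraries, of which HFD_sed had 176, the median was −0.31 with 5 genes lower and none higher.

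HFD_EXE and S differed in opposite directions by class. LSEC had 16 of 24 immediate early genes higher in HFD_EXE (median 0.84, background 8.82%) and vascular endothelium 14 of 21 (0.72, 5.89%), with none lower in either. NK cells had 11 of 22 lower and 1 higher (−0.60, 5.7%), from 99 cells in HFD_EXE. This class stands for NK cells or ILC1. Its main cluster held 72.0% of its cells in S, 69.4% in HFD_sed and 52.5% in HFD_EXE, and the others lay in a cluster led by Ncr1 and Klrb1b. The part of this shift in the NK values was not tested. Kupffer cells divided into 5 higher and 5 lower, beside 7.68% and 7.52% of all gene and class pairs. Without the Mmp12 and Cd207 cluster they divided into 5 higher and 11 lower of 24. The medians over all measured genes ran from −0.07 to 0.04 here.

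The AP-1 genes encode the Fos and Jun proteins, which pair to bind DNA, with Atf3 and Maff as related leucine zipper proteins. Of 78 pairs of these 9 genes and a class, 44 were called higher and 1 lower in HFD_sed than in S, and of 79 pairs 51 were called lower and 3 higher in HFD_EXE than in HFD_sed. Fos stood at 497, 1038 and 495 CPM in LSEC, in the order S, HFD_sed, HFD_EXE that all triples below follow, at 1756, 3498 and 1532 CPM in monocytes and monocyte-derived macrophages and at 682, 996 and 462 CPM in T cells. HFD_sed was the highest library in 9 of the 10 classes. One of these, Kupffer cells, had S highest without the Mmp12 and Cd207 cluster, at 1374, 1233 and 850 CPM. In neutrophils, 4171, 3384 and 5283 CPM, HFD_sed was the lowest, and HFD_EXE was called higher than HFD_sed (log2 ratio 0.64, 95% interval 0.59 to 0.69). Without the neutrophil cluster that Acod1 and Ptgs2 also mark, where 302 of 350 cells were of HFD_sed, the call was lost and HFD_sed was the highest library, at 4278, 5975 and 5409 CPM (−0.14 for HFD_EXE over HFD_sed). Fosb, another partner in these complexes, had the same order in neutrophils, 470.3, 353 and 538 CPM, and without that cluster it too was highest in HFD_sed, 484.5, 669 and 543 CPM, with no call. Fos was called lower in HFD_EXE than in HFD_sed in the 9 other classes, with NK cells lowest at −1.71 (95% interval −1.89 to −1.53). The Kupffer call was lost without the Mmp12 and Cd207 cluster (−0.54).

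Jun was the member with the largest share of its own variation in the library difference averaged over classes. Its levels were 344, 928 and 528 CPM in LSEC, 449.9, 652 and 365 CPM in T cells and 748, 853 and 476 CPM in B cells. Its ratio of HFD_sed over S was above 1 in each of the 10 classes, from 0.07 in Kupffer cells to 1.43 (95% interval 1.39 to 1.47) in LSEC on the log2 scale, but passed the call in 4. In Kupffer cells, at 899, 946 and 521 CPM, S and HFD_sed were close and HFD_EXE was the low library (−0.86, 95% interval −0.92 to −0.80). Without the Mmp12 and Cd207 cluster Jun was at 886, 630 and 415 CPM there, so HFD_sed lay below S (−0.49, no call). Junb, which can restrain Jun, was at 420.1, 923 and 456 CPM in LSEC and 5083, 4799 and 4928 CPM in neutrophils, where the 3 libraries were close. Without the neutrophil cluster that Acod1 and Ptgs2 also mark, Junb was highest in HFD_sed there, at 5127, 6430 and 4968 CPM, with no call. Jund was at 967, 1646 and 835 CPM in T cells.

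Atf3, a repressor made under many kinds of stress, was called higher in HFD_sed than in S in 8 of 10 classes, and without the Mmp12 and Cd207 cluster the Kupffer call was lost (0.11, from 1.197), which left 7. It stood at 348, 1167 and 450.4 CPM in monocytes and monocyte-derived macrophages, 139, 319.7 and 180.0 CPM in Kupffer cells and 10.4, 69.0 and 30.6 CPM in LSEC. NK cells went the other way, at 46.9, 25.4 and 7.84 CPM with −0.88 (95% interval −1.71 to −0.12), on 62, 19 and 4 UMIs. In T cells the level was low, 9.90, 23.4 and 7.09 CPM, and with estimated free RNA subtracted the log2 ratio turned from 1.24 to −2.27. Atf3 was called lower in HFD_EXE than in HFD_sed in all 10 classes, from −0.59 in vascular endothelium to −1.77 (95% interval −2.53 to −1.08) in B cells.

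Maff, a small Maf protein, had the largest ratio of any member in LSEC, 1.79, 35.9 and 18.3 CPM, a log2 ratio of 4.33 (95% interval 3.91 to 4.78) for HFD_sed over S. It was also high in HFD_sed in monocytes and monocyte-derived macrophages, 5.85, 43.9 and 14.0 CPM, and in neutrophils, 19.7, 157 and 33.3 CPM, where without the cluster that Acod1 and Ptgs2 also mark it was at 15.9, 27.2 and 30.8 CPM and the call was lost. In T cells, 14.8, 14.5 and 20.3 CPM, no call was made. Fosl2, another Fos relative, was at 37.9, 257 and 151 CPM in LSEC, and in Kupffer cells HFD_EXE was its highest library, 77.2, 88.1 and 194 CPM.

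**Figure D3:**
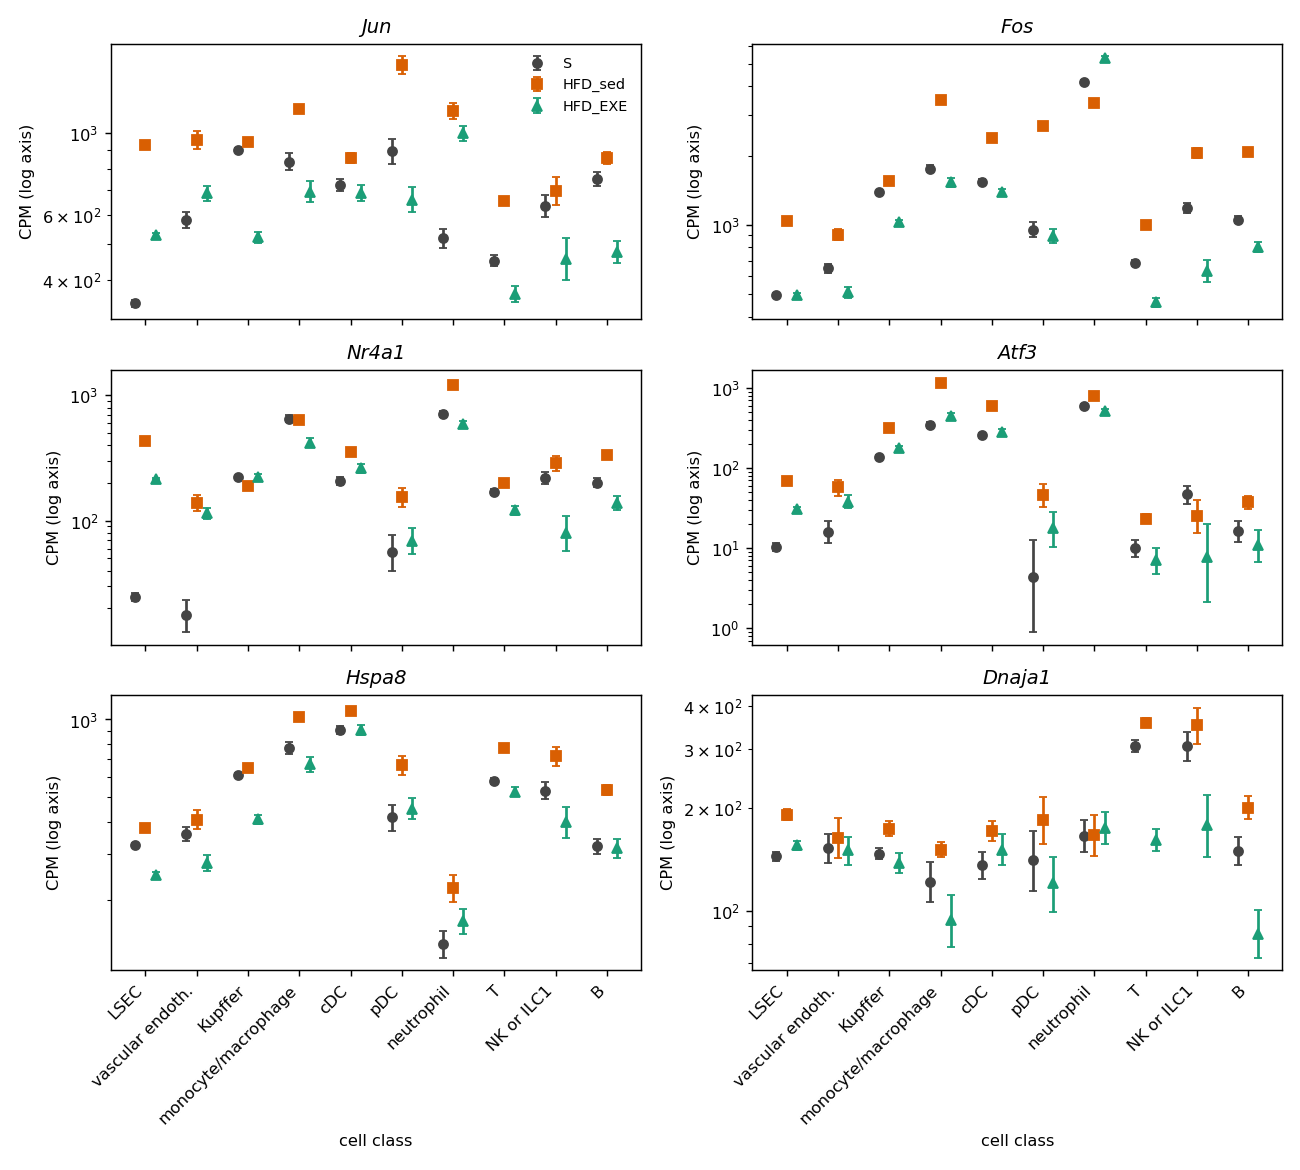
CPM (log axis) of Jun, Fos, Nr4a1, Atf3, Hspa8 and Dnaja1 in each class and library, with exact Poisson 95% intervals. Nr4a1 in S lies farthest below the other libraries in the endothelial classes, while Hspa8 has HFD_sed on top in all 10 classes. Without the Mmp12 and Cd207 cluster, which is not plotted, Kupffer cells had Hspa8 highest in S.

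The zinc finger genes (Egr1 to Egr3 and Klf6) had 18 of 35 pairs called higher and 4 lower in HFD_sed than in S, and 16 of 34 lower and 1 higher in HFD_EXE than in HFD_sed. Egr1, which SRF activates, stood at 146, 945 and 261 CPM in LSEC (log2 ratio of HFD_sed over S 2.70, 95% interval 2.65 to 2.75) and at 223, 688 and 336 CPM in vascular endothelium. In NK cells S was the high library, at 177, 77.7 and 74.5 CPM, and HFD_sed was called lower (−1.19, 95% interval −1.63 to −0.77). In monocytes and monocyte-derived macrophages, 134, 359 and 332 CPM, both HFD libraries were above S, and no call separated them. Egr3, which is induced by antigen receptor signals in lymphocytes, was at 1.25, 13.3 and 1.56 CPM in LSEC and at 31.2, 11.1 and 7.80 CPM in T cells, so S was the lowest library in one class and the highest in the other. In B cells it was at 185, 159 and 130.3 CPM, with no call. Egr2 in T cells, 16.5, 10.4 and 5.20 CPM, also had S highest, and it was lowest in HFD_EXE in Kupffer cells, 20.2, 41.5 and 6.99 CPM, and, without the Mmp12 and Cd207 cluster, at 19.3, 12.9 and 3.11 CPM there.

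Klf6, a regulator of endothelial and myeloid genes, did not peak in HFD_sed in endothelium. It was called higher in both steps in vascular endothelium, 146, 301 and 752 CPM, with 1.05 (95% interval 0.84 to 1.25) for HFD_sed over S and 1.32 (95% interval 1.17 to 1.48) for HFD_EXE over HFD_sed. In LSEC, 144, 437 and 629.6 CPM, only the first was called. T cells, 719.7, 1364 and 739 CPM, and B cells, 370.2, 951 and 527 CPM, had HFD_sed highest, and in Kupffer cells, 947, 868 and 903 CPM, the 3 libraries were close. Rhob, a small GTPase of endosomes, had the endothelial pattern of Klf6, at 266, 554 and 966 CPM in vascular endothelium and 325, 1035 and 1131 CPM in LSEC. Dusp5, a nuclear phosphatase of ERK kinases, was at 9.71, 31.7 and 65.7 CPM and 29.6, 222 and 183 CPM in the same classes, and at 6.67, 33.7 and 37.0 CPM in Kupffer cells. In monocytes and monocyte-derived macrophages, 183, 88.9 and 89.9 CPM, it was called lower in HFD_sed (−1.04, 95% interval −1.23 to −0.85). Of this class, 59.3% of S lay in a cluster led by Ace, and 87.4% of HFD_sed in one led by Chil3. Within the Chil3 cluster alone, 16 of 24 immediate early genes were called higher in HFD_sed than in S and none lower, so the Dusp5 call was absent.

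The Nr4a genes encode orphan nuclear receptors. Of their 27 pairs with a class, 16 were called higher and none lower in HFD_sed than in S, and 17 of 27 lower and 1 higher in HFD_EXE than in HFD_sed. Nr4a1 was at 24.6, 431 and 215 CPM in LSEC and 17.6, 139.5 and 114 CPM in vascular endothelium, with log2 ratios of 4.13 (95% interval 4.02 to 4.25) and 2.99 (95% interval 2.52 to 3.48) for HFD_sed over S. In Kupffer cells, 222, 190.0 and 224 CPM, and monocytes and monocyte-derived macrophages, 653, 641 and 418 CPM, HFD_sed and S were not called apart. In the members measured in all classes, Nr4a1 in LSEC was also the farthest from its own median over classes, by 3.39 on the log2 scale. Nr4a2 had its largest HFD_sed ratio in T cells, 89.3, 307 and 61.01 CPM (1.78, 95% interval 1.66 to 1.91). In neutrophils Nr4a2 stayed at 10.6, 11.2 and 10.8 CPM while Nr4a3 was at 20.6, 110.0 and 13.8 CPM, and at 16.9, 20.96 and 13.3 CPM, with no call, without the cluster that Acod1 and Ptgs2 also mark. Nr4a3 in Kupffer cells was highest in HFD_EXE, 2.31, 5.84 and 13.6 CPM.

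The remaining immediate early genes mostly encode proteins that limit the response. Of 90 pairs of these 9 genes and a class, 44 were called higher and 3 lower in HFD_sed than in S, and of 89 pairs 36 lower and 4 higher in HFD_EXE than in HFD_sed. Dusp1, a phosphatase of MAP kinases, was at 2084, 2064 and 2783 CPM in Kupffer cells, 5351, 6759 and 8131 CPM in neutrophils and 899.5, 1405 and 554 CPM in NK cells. HFD_EXE was the highest library in the first and second of these classes and the lowest in the third. Without the neutrophil cluster that Acod1 and Ptgs2 also mark, HFD_sed was the highest in neutrophils, at 5425, 8321 and 8192 CPM. There HFD_sed was called higher than S (0.62). Zfp36, which destabilises cytokine mRNAs, was at 1069, 2244 and 1039 CPM in monocytes and monocyte-derived macrophages and 394, 1019 and 469 CPM in pDC, with HFD_sed highest. In vascular endothelium, 339.5, 555 and 556 CPM, HFD_sed and HFD_EXE were level. Btg2, an antiproliferative gene, was at 106, 432 and 190.0 CPM in LSEC. Dusp2, a MAP kinase phosphatase of leukocytes, was called higher in HFD_sed than in S in 8 of 10 classes. Without the Mmp12 and Cd207 cluster its Kupffer call was lost (0.10, from 1.52), which left 7. In neutrophils it was at 86.9, 512 and 69.1 CPM (2.56, 95% interval 2.32 to 2.80), and at 71.6, 193 and 58.4 CPM without the cluster that Acod1 and Ptgs2 also mark (1.43). Ier3, a regulator of survival, was at 196, 1146 and 244 CPM in neutrophils but at 127, 71.3 and 82.6 CPM in cDC, where S was the high library (−0.83, 95% interval −1.04 to −0.63). Ier2 was at 71.2, 292 and 172 CPM in LSEC, and Ier5 was called in no class for HFD_sed over S.

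Some immediate early genes ran against the median of their class. Ier3 in NK cells, 24.97, 10.7 and 7.84 CPM, and Egr2 in cDC, 38.0, 23.4 and 27.2 CPM, were called lower in HFD_sed than in S. Rhob was called higher in HFD_EXE than in HFD_sed in cDC, 223, 161 and 286 CPM, and in neutrophils, 538, 585 and 891 CPM, where without the cluster that Acod1 and Ptgs2 also mark the call was lost (0.53, at 546, 622.5 and 898 CPM). Against S, HFD_EXE was low for Nr4a2 in cDC, 123, 127 and 50.2 CPM, and for Egr3 in neutrophils, 62.4, 92.4 and 36.9 CPM, a call that was lost without the same cluster (−0.57). It was high for Fosl2 in NK cells, 114, 250.4 and 212 CPM, and in B cells, 9.34, 29.2 and 19.3 CPM, and for Atf3 in pDC, 4.30, 45.9 and 17.6 CPM, on 3, 39 and 17 UMIs. Each of these is a difference of 1 gene in 1 class, opposite in sign to the median of its class.

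Over all pairs with a class, the heat shock genes differed less between libraries than the immediate early genes, but mostly with 1 sign. The median log2 ratios over pairs were 0.34 against 0.63 for HFD_sed over S, and −0.43 against −0.62 for HFD_EXE over HFD_sed. By class, the heat shock median of HFD_sed over S ran from 0.20 in NK cells to 0.51 in LSEC. It was above the immediate early median in Kupffer cells (0.32 against 0.13) and neutrophils (0.50 against 0.38). Without the neutrophil cluster that Acod1 and Ptgs2 also mark, both sums were 1.47-fold above S in neutrophils. Of 7 heat shock genes measured in every class, 5 (Hspa8, Dnaja1, Hsp90aa1, Hspd1 and Hspe1) had a ratio above 1 in all 10 classes, as did 5.21% of 5779 genes. Of 18 immediate early genes so measured, 4 did (Jun, Dusp2, Zfp36 and Btg2). Without the Mmp12 and Cd207 cluster, Hspa8 (−0.215) and Jun (−0.49) lay below S in Kupffer cells. From HFD_sed to HFD_EXE, 6 of the 7 heat shock genes had a ratio below 1 in all 10 classes (Hspa8, Dnajb1, Hsp90aa1, Hsp90ab1, Hspd1 and Hspe1), as did 3.25% of 5561 genes, and 2 of 18 immediate early genes did (Jun and Atf3). Without the neutrophil cluster that Acod1 and Ptgs2 also mark, the log2 ratio of Jun was 0.08 in neutrophils. By the rule of a call in at least 8 of 10 classes, no heat shock gene qualified in either comparison. That rule gave Atf3 and Dusp2 of 18 immediate early genes as higher in HFD_sed than in S (0.536% of all genes) and Fos, Junb and Atf3 as lower in HFD_EXE than in HFD_sed (0.414% of all genes). The first of these counts fell to 0 or 1 in 7 alternatives given in the closing section.

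Of 65 pairs of an HSP70 or co-chaperone gene and a class, 16 were called higher and 1 lower in HFD_sed than in S, and 26 of 62 lower and none higher in HFD_EXE than in HFD_sed. Hspa8, the constitutive HSP70, was at 326, 379 and 249.7 CPM in LSEC, 577, 778 and 526 CPM in T cells and 134, 222 and 165 CPM in neutrophils. HFD_sed was highest in each, and its ratio over S stayed between 0.09 in Kupffer cells and 0.73 in B cells on the log2 scale. Without the Mmp12 and Cd207 cluster the Kupffer ratio was −0.215, at 602, 518 and 361 CPM. Dnaja1, a co-chaperone of HSP70, differed in T, NK and B cells, where HFD_EXE was the low library: 306, 358 and 162 CPM, 305, 351 and 178 CPM and 149.8, 201 and 85.6 CPM. In neutrophils it was at 166, 167 and 176 CPM. Dnajb1, which also helps HSP70, was at 41.5, 49.4 and 22.1 CPM in monocytes and monocyte-derived macrophages and 35.4, 48.3 and 35.7 CPM in LSEC. Hsph1, a nucleotide exchange factor of HSP70, was called higher in HFD_sed than in S in 7 of 9 classes, pDC having the largest ratio at 8.61, 47.0 and 12.4 CPM (2.45, 95% interval 1.204 to 3.98), and in LSEC, 17.0, 21.2 and 14.1 CPM, it was not.

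The inducible HSP70 genes behaved by class. Hspa1a was at 138, 161 and 72.0 CPM in Kupffer cells and 49.2, 107 and 24.3 CPM in monocytes and monocyte-derived macrophages, and Hspa1b at 46.0, 54.9 and 45.2 CPM and 32.2, 40.8 and 7.37 CPM. Kupffer cells had the highest Hspa1a level of all classes in S and in HFD_sed, and in both macrophage classes HFD_EXE was lowest. Without the Mmp12 and Cd207 cluster, Hspa1a was at 132.8, 99.5 and 48.3 CPM in Kupffer cells. HFD_sed then lay below S (−0.42, no call) and below the 107 CPM of monocytes and monocyte-derived macrophages. Hspa1b was then at 44.0, 51.6 and 32.55 CPM. Summed with that cluster kept, Hspa1a and Hspa1b were at 183.9, 215.7 and 117.1 CPM in Kupffer cells. In monocytes and monocyte-derived macrophages the sum was 81.35, 147.5 and 31.7 CPM. Bag3, a co-chaperone of selective autophagy, had HFD_EXE as its highest library in LSEC, 53.0, 58.7 and 84.1 CPM, and in vascular endothelium, 62.4, 60.3 and 87.5 CPM. In these classes HFD_EXE over S in LSEC was its only call.

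The HSP90 genes had 6 of 20 pairs with a class higher in HFD_sed than in S and 5 of 20 lower in HFD_EXE than in HFD_sed. The inducible Hsp90aa1 was at 87.6, 159.8 and 117 CPM in LSEC, 176, 311 and 219 CPM in Kupffer cells and 79.2, 207 and 76.3 CPM in neutrophils. It was called higher in HFD_sed than in S in 5 classes, and in neutrophils no longer so without the cluster that Acod1 and Ptgs2 also mark (0.57, from 1.39). The constitutive Hsp90ab1 was at 814, 862 and 695 CPM and 1015, 1310 and 1135 CPM in LSEC and Kupffer cells, and its only call in any class or comparison was HFD_sed over S in neutrophils, 157, 252 and 196 CPM, which was lost without that cluster (0.55). The mitochondrial pair Hspd1 and Hspe1, which form the HSP60 folding chamber and its lid, was at 82.3, 147 and 129 CPM and 106, 198 and 136 CPM in Kupffer cells, with HFD_sed over S called for both. The small heat shock gene Hspb1 was at 53.4, 64.8 and 72.6 CPM in vascular endothelium and 20.9, 35.8 and 35.1 CPM in LSEC, and at 0.585, 1.05 and 2.21 CPM in monocytes and monocyte-derived macrophages, where its UMIs were too few for a call. Hspb1 ran against the other heat shock genes in T cells, 2.03, 1.33 and 3.78 CPM, and cDC, 3.86, 3.62 and 8.51 CPM, where HFD_EXE was called higher than HFD_sed on 15, 15 and 16 UMIs and 13, 18 and 20 UMIs. Dnajb1 in pDC, 88.9, 58.8 and 55.0 CPM, was the only heat shock call lower in HFD_sed than in S.

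The variation of each gene on the log2(CPM + 1) scale over 10 classes and 3 libraries was divided into parts. These were a part set by class, a part of the library averaged over classes, and a part of single classes in single libraries. A large difference in a few classes also enters the library part: in Maff the log2 ratios of HFD_sed over S ran from −0.10 to 4.33. Each part is a share of the gene's own variance, which was 0.242 in Jun and 5.23 in Atf3. For 17 immediate early genes measured throughout, the median parts were 79.2%, 9.39% and 11.3%. For 7 heat shock genes they were 84.5%, 10.9% and 4.57%, and for all 5174 genes 87.2%, 2.79% and 8.59%. Among the 1493 genes with a mean of at least 100 CPM, where counting error is smaller, the medians were 91.6%, 2.38% and 5.12%. Both groups thus had a larger averaged library part than most genes, and the immediate early genes had a larger part of single classes than the heat shock genes. Jun had 37.5%, 37.6% and 24.9%, Maff 49.4%, 29.0% and 21.6%, Dnaja1 58.4%, 23.4% and 18.1% and Hsph1 73.5%, 19.4% and 7.15%. The parts of single classes were largest in Jun, Nr4a1 (62.6%, 12.6% and 24.8%), Klf6 (62.0%, 14.5% and 23.5%) and Maff. At the other end, Dusp1 had 94.4%, 2.68% and 2.97% and Hsp90ab1 95.7%, 2.4% and 1.87%. With its own median over classes taken off, a gene was counted where it was still at least 1 log2 unit higher in HFD_sed over S. Of 18 immediate early genes this held for 7 in LSEC (1.7% of 5779 genes), 3 in neutrophils (7.63%), 2 in vascular endothelium (2.63%), 2 in pDC (2.15%) and 1 in Kupffer cells (0.779%). It held for none in the remaining 5 classes (0.156% to 0.796%) and for none of 7 heat shock genes in any class. The 3 in neutrophils were Dusp2, Ier3 and Dusp5, with medians over classes of 0.94, 1.34 and 0.67. Without the neutrophil cluster that Acod1 and Ptgs2 also mark, their neutrophil log2 ratios were 1.43, 1.67 and 0.79. Each was then less than 1 log2 unit above that median.

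**Figure D4:**
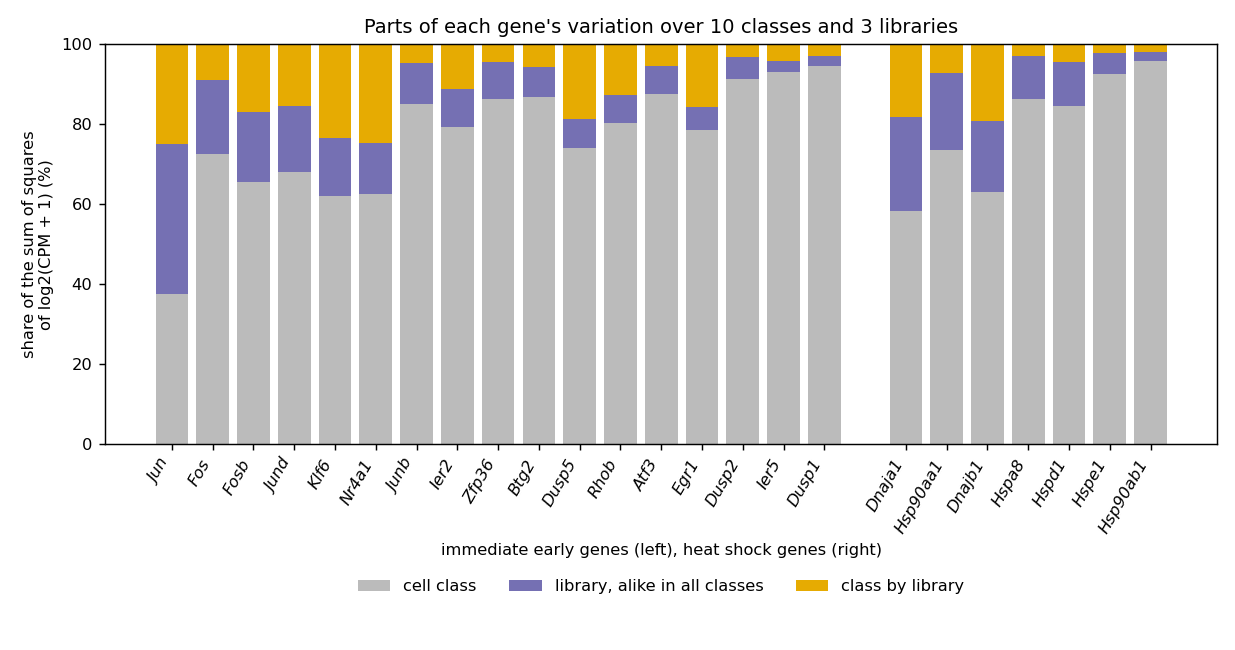
Stacked shares, in percent, of each gene's sum of squares of log2(CPM + 1) over 10 classes and 3 libraries, for the 24 members measured in all classes and comparisons, ordered by the library share within each group. Jun has the tallest library part, at 37.6%, and Hsp90ab1 the tallest class part of the heat shock genes, at 95.7%. The library part is the library difference averaged over classes, which a large difference in a few classes also raises.

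Per cell, the LSEC difference lay in the whole distribution. With each cell thinned to 1000 UMIs, LSEC had medians of 2, 9 and 6 immediate early UMIs, lowest deciles of 0, 3 and 2 and highest deciles of 8, 19 and 12 in S, HFD_sed and HFD_EXE. Unthinned, the median share was 0.231%, 0.872% and 0.572% of a cell's UMIs. All 3 points of the distribution were higher in HFD_sed than in S. In monocytes and monocyte-derived macrophages the medians were 12, 18 and 9, the lowest deciles 4, 4 and 2 and the highest 23.7, 37 and 29.3, so between S and HFD_sed the upper deciles differed and the lowest did not. Unthinned, their median shares were 1.22%, 1.91% and 0.888%. T cells had medians of 7, 12 and 6 and highest deciles of 16, 24 and 16. In Kupffer cells the medians were 10, 9 and 9, and in neutrophils 29, 36 and 36. The unthinned medians were 0.737%, 1.16% and 0.553% in T cells, 1.05%, 0.954% and 0.848% in Kupffer cells and 2.89%, 3.54% and 3.53% in neutrophils. The thinned heat shock medians were 1, 2 and 1 in LSEC and 3, 3 and 2 in T cells, too few UMIs to order cells. Thinning left out 0 to 180 cells per class and library. Across cells of 1 class and library, the thinned immediate early and heat shock counts had a Pearson r between −0.112 and 0.263 (79 to 4312 cells, which share a library), with sparse heat shock counts.

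**Figure D5:**
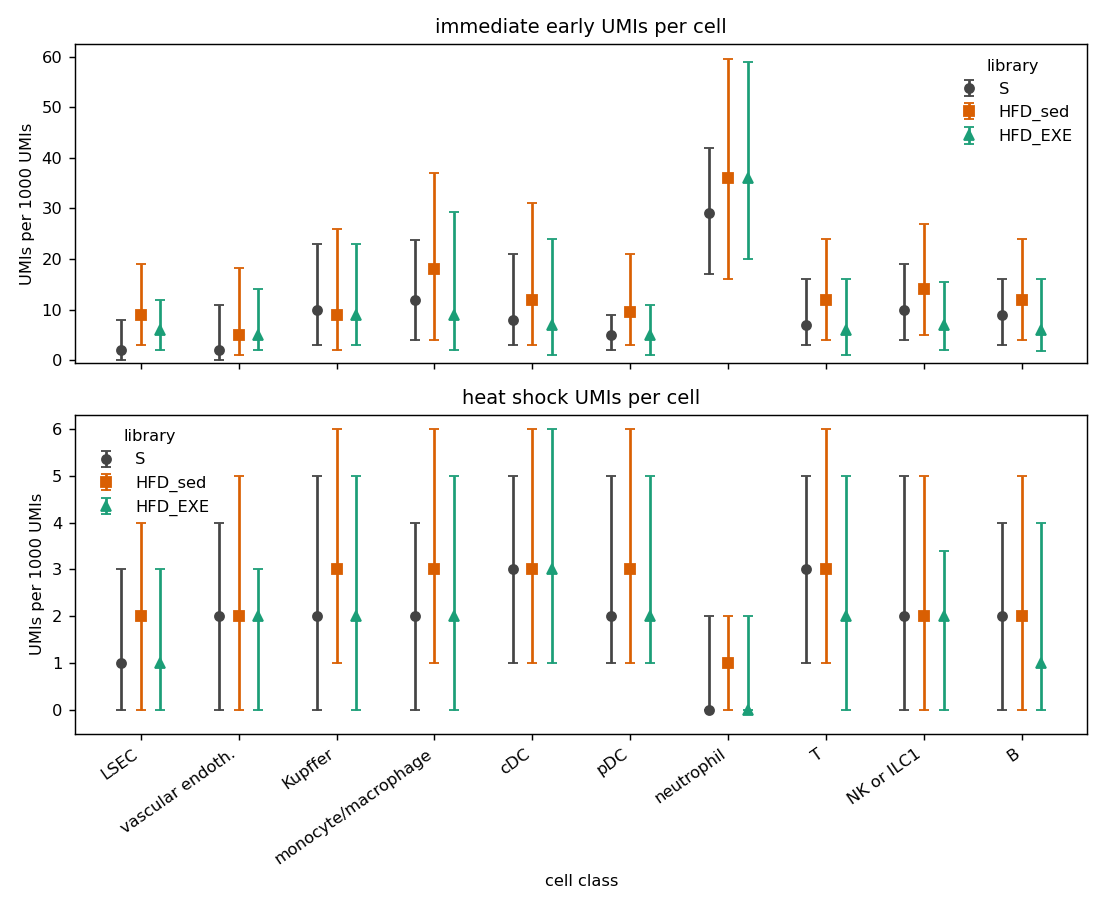
Immediate early (top) and heat shock (bottom) UMIs per cell after thinning to 1000 UMIs, by class and library; points are medians over cells and bars run from the lowest to the highest decile. The LSEC medians are 2, 9 and 6 in the top panel, and the neutrophil bars lie above those of the other classes there.

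Of the other rapid response genes (22 genes), 88 of 210 pairs with a class were called higher and 21 lower in HFD_sed than in S, and 64 of 210 lower and 35 higher in HFD_EXE than in HFD_sed. Among them Gadd45b, a stress sensor, was at 269, 2139 and 313 CPM in neutrophils, and Phlda1 at 5.15, 45.6 and 12.7 CPM in LSEC. The upstream factors, SRF and CREB family members among them, had 15 of 137 pairs higher and 8 lower in HFD_sed than in S, with Crem, a CREB relative, at 16.8, 53.5 and 48.1 CPM in LSEC. Heat shock factors had 2 of 30 higher and 1 lower, with Hsf1 at 23.3, 39.6 and 29.1 CPM in T cells. Other MAP kinase phosphatases divided into 8 higher and 12 lower of 47. Of the other chaperones in HFD_sed over S, those of the endoplasmic reticulum had 23 of 100 higher and none lower, with Pdia6, a disulfide isomerase, at 100.1, 256 and 240.3 CPM in monocytes and monocyte-derived macrophages. Other cytosolic chaperones had 26 higher and 6 lower of 194, the CCT chaperonin 6 and 1 of 80, and mitochondrial chaperones 2 and 1 of 58. The shares of the upstream, CCT and mitochondrial lists lay near or below the background given above for all pairs.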

How the data were processed

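Whole-number UMI counts per gene and cell barcode were made by the submitters with Cell Ranger 6.1.2 on GRCm39, per the submitters' processing notes, and deposited as count matrices for the 3 libraries S, HFD_sed and HFD_EXE. The matrices hold 55357 gene identifiers and 11660, 11752 and 11280 barcodes, more than the 5000 to 6000 cells that the labels say were captured. No column of another series was found.

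From these counts, cells with at least 500 UMIs, 300 genes and under 15% mitochondrial UMIs were kept. Doublets were called with the Scrublet method in scanpy 1.11.5 and removed above a score of 0.219. This is the average of the thresholds found automatically in S and HFD_sed, because the automatic one of HFD_EXE marked 0 cells. This removed 403, 328 and 295 cells. Cells were clustered with leidenalg 0.10.2 at resolution 1.0 on 30 components of 2000 variable genes, without the members and the related lists. Clusters were named from marker lists. A cluster of 1276 cells with Kupffer and hepatocyte markers and an unnamed one of 1188 cells were among those left out. The rule for clusters whose leading genes favour another type and the minimum of 75 cells per class and library were set after the clusters were seen. The class names are rebuilt here, not the authors'.

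CPM is the summed UMIs of a gene over those of its class and library. Intervals are exact 95% Poisson and binomial (scipy 1.17.1) and cover counting error only, and no p-value is given, since each group has 1 library. A call needs a ratio of 1.5 and an interval outside 1. Free RNA was estimated from markers of other cell types. The call was also run on simulated counts with counting error alone, at the depths of LSEC and NK cells. These hold no variation between cells or between replicate libraries, so they cannot show how calls behave between real libraries.

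The members and lists were chosen with earlier results of these data known. Genes were given values by rule: the 3 with the highest mean CPM in each role list, the 4 with the largest library and the 4 with the largest single-class part, and up to 3 per class against its median. Bag3, Dusp2, Ier2, Ier5, and further classes of other members, were added after their values were seen. Alternatives were other resolutions, members used in clustering, doublets kept, other UMI and mitochondrial limits, scalings, free RNA subtracted and other UMI minimums. Promoter windows came from RefSeq tables of GRCm38.p6, another build than the counts.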

Additional observations from a re-analysis of the deposited data

Results flagged for a closer look

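The values here are log2 ratios of members called in opposite directions in different classes under the same comparison, given for the classes at the ends. Only members called higher by at least 1 log2 unit in one class and lower by at least 1 log2 unit in another are listed. With 1 library per group these differences between classes were not tested. For HFD_sed over S, Egr1 was 2.70 in LSEC and −1.19 in NK cells, and Egr3 was 3.41 in LSEC and −1.49 in T cells. In the same comparison Ier3 was 2.55 in neutrophils and −1.22 in NK cells, and Dusp5 was 2.91 in LSEC and −1.04 in monocytes and monocyte-derived macrophages. Within the monocyte cluster led by Chil3 alone, no immediate early gene was called lower in HFD_sed than in S. For HFD_EXE over HFD_sed, Nr4a3 was 1.23 in Kupffer cells and −2.99 in neutrophils, and Dusp5 was 1.05 in vascular endothelium and −2.06 in neutrophils. Without the neutrophil cluster that Acod1 and Ptgs2 also mark, these neutrophil values were −0.66, with the call lost, and −1.11, and that of Ier3 was 1.67.

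For HFD_EXE over S, Atf3 was 2.04 in pDC and −2.58 in NK cells, Egr1 was 1.31 in monocytes and monocyte-derived macrophages and −1.25 in NK cells, and Nr4a1 was 3.13 in LSEC and −1.46 in NK cells. Nr4a2 was 1.02 in Kupffer cells and −1.31 in monocytes and monocyte-derived macrophages, and Dusp5 was 2.76 in vascular endothelium and −1.02 in the latter. Of the heat shock genes, Hspa1b was 1.495 in cDC and −2.13 in monocytes and monocyte-derived macrophages. It shares reads with Hspa1a, and the sum of both was 0.65 in cDC and −1.36 in monocytes and monocyte-derived macrophages. Of the latter class, 59.3% of S lay in the cluster led by Ace, and 61.5% of HFD_EXE in that led by Chil3. Within the Chil3 cluster alone, 2 of 22 immediate early genes were called higher in HFD_EXE than in S and 4 lower, and no heat shock gene was called. The median of the immediate early genes, listed by a limit of 1.5-fold each way, was 0.84 in LSEC and −0.60 in NK cells.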

How the results depend on the processing

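No paired analysis was possible because each group has 1 library, and no library could be left out. Of the calls on members, 87.3% to 100% per alternative and comparison were kept, and 1 turned, Atf3 in T cells for HFD_sed over S, from 1.24 to −2.27 with free RNA subtracted. The count of immediate early genes higher in HFD_sed than in S in at least 8 of 10 classes was 2. It was 0 without the Kupffer-like cluster led by Mmp12 and Cd207, at 100 UMIs, with free RNA subtracted and at resolution 0.5, and 1 with doublets kept, with the mean of per-cell CPM and with members used in clustering. The count lower in HFD_EXE than in HFD_sed was 3, and 5 with the mean of per-cell CPM. The immediate early genes below 0 in every class for HFD_EXE over HFD_sed numbered 2. They numbered 1 at 100 UMIs and with free RNA subtracted, and 4 in classes of at least 100 cells, with the mean of per-cell CPM, with members used in clustering, at resolution 2.0 and when scaled outside mitochondrial, ribosomal, haemoglobin and hepatocyte genes. For HFD_EXE over S the count above 0 in every class was 0, and 1 at 1 UMI, with doublets kept and in classes of at least 100 cells, the last also for heat shock genes. The median over classes of the immediate early medians for HFD_sed over S was 0.52, and 0.42 at resolution 0.5. The cause of these shifts was not tested. Without the same Kupffer-like cluster the immediate early sum in Kupffer cells turned from 1.05-fold higher to 1.04-fold lower in HFD_sed than in S, and without the neutrophil cluster that is mostly HFD_sed the sum in neutrophils turned from 1.04-fold higher to 1.15-fold lower in HFD_EXE than in HFD_sed. The heat shock counts of 5 and 6 stayed within 1.5 times in every alternative run. Among class medians of the immediate early genes for HFD_EXE over HFD_sed, that of vascular endothelium went from −0.34 to −0.62 with the mean of per-cell CPM and −0.57 at resolution 2.0, that of cDC from −0.33 to −0.54 with members used in clustering, and that of Kupffer cells from −0.28 to −0.17 without the Mmp12 and Cd207 cluster. Scaling by the median of ratios moved class medians of the immediate early genes most in NK cells, from 0.37 to 0.24 for HFD_sed over S. The leaving out of single clusters and the limit of 100 cells per class were added after the data were seen. The smallest class, pDC, had 79 cells in S, which limits its rarer genes.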
